A study of Mus musculus with 4 samples.

Results

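The Tcl1 oncogene family of the mouse was followed in late 2C embryos cultured with or without Mdivi-1, a small-molecule inhibitor of the mitochondrial fission GTPase DRP1. Its 6 members are *Tcl1*, *Tcl1b1*, *Tcl1b2*, *Tcl1b3*, *Tcl1b4* and *Tcl1b5*, found by gene symbol among the 26022 genes of the deposited count table. All 6 passed the filter on low counts, which left 14259 genes to be tested. The family was chosen by results of the comparison reported here, so the values of its members in that comparison are given as a description, with no p for a member and with counts of calls that are not read as support.

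There were 4 libraries. Control replicates 1 and 2 came from zygotes of ICR mice, an outbred strain, cultured in KSOM medium for 16 h, and Mdivi-1 replicates 1 and 2 from zygotes cultured in the same medium with 200 µM Mdivi-1. The mothers were superovulated females of 7 to 8 weeks mated with ICR males, and the labels name no genetic change in any group. The methods give 8 to 10 pooled embryos for each group, whose RNA was amplified by Smart-Seq2, a full-length method that marks neither strand nor single molecules. The sources do not give the vehicle of the control embryos, or whether libraries of 1 group stem from different litters, so the spread between libraries may be technical.

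TCL1 proteins are small beta-barrel proteins that bind the pleckstrin homology domain of AKT kinases and raise AKT activity. The human gene *TCL1A* is an oncogene of T-cell leukaemia, where translocations place it under T-cell receptor control. In the mouse, *Tcl1* and a rodent-expanded set of *Tcl1b* copies are abundant in oocytes and cleavage embryos, and mothers without *Tcl1* have embryos that cleave poorly.

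The 6 genes lie side by side on chromosome 12 in 76.8 kb, from 105146014 to 105222793 on GRCm38 (GENCODE M21), with 0 other annotated genes between or over them. Their order is *Tcl1b2*, *Tcl1b1*, *Tcl1b5*, *Tcl1b3* and *Tcl1b4* on the plus strand and *Tcl1* on the minus strand, with gaps of 4464 to 9897 bases between neighbours. Each has a main transcript of 4 exons with a coding length of 348 to 366 bases. Exon 2 lies wholly in the coding sequence and is shown for all 6 members, since it makes visible how alike the copies are that the reads had to tell apart. Capitals mark a base that differs from the base shared by at least 3 of the 5 *Tcl1b* copies, and *Tcl1*, which is too distant for that comparison, is in lower case.
Tcl1b1 exon 2 (chr12:105164401-105164565, plus strand): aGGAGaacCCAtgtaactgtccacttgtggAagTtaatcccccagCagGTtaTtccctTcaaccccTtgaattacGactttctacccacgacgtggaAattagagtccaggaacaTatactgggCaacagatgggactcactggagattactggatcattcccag
Tcl1b2 exon 2 (chr12:105152999-105153169, plus strand): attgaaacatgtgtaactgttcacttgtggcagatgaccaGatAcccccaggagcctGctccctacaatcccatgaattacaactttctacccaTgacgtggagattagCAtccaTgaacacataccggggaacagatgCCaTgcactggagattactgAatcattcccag
Tcl1b3 exon 2 (chr12:105193416-105193586, plus strand): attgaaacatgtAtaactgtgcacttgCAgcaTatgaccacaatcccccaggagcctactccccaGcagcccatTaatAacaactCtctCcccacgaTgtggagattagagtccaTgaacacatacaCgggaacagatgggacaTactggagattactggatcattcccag
Tcl1b4 exon 2 (chr12:105204642-105204812, plus strand): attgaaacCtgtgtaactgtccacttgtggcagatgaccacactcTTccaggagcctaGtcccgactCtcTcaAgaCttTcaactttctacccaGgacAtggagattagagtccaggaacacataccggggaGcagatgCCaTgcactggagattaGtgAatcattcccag
Tcl1b5 exon 2 (chr12:105178920-105179090, plus strand): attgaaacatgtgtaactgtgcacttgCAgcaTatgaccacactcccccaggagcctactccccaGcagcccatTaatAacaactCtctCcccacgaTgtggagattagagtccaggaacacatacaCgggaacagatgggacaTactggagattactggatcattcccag
Tcl1 exon 2 (chr12:105218659-105218829, minus strand): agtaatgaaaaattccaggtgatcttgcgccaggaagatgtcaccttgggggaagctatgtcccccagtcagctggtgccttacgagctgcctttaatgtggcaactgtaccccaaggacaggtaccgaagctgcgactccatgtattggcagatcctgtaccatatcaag

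In exon 2, 107 of 171 positions (62.6%) held the same base in all 5 *Tcl1b* copies. *Tcl1b3* and *Tcl1b5* were the closest pair, with 168 of 171 bases identical (98.2%). *Tcl1b1* stood farthest from the rest of the *Tcl1b* copies, with 19 bases off the majority and a gap of 6 bases at position 36, counted from 1 at the 5′ end of the exon. Over whole messenger RNAs the *Tcl1b* copies were 83.0 to 92.4% identical to each other, while *Tcl1* was 51.6 to 52.6% identical to them.

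The authors counted reads that map to a single place, so the likeness of the copies bears on their counts. Each main transcript was searched against the main transcripts of the other members and the GENCODE M21 transcripts of all other genes. Other transcripts of the members were not searched. Of 50-base stretches, 100% were unique in this sense for *Tcl1*, 95.7% for *Tcl1b4* and 87.1% for *Tcl1b1*. The share was 79.2% for *Tcl1b5*, 68.6% for *Tcl1b2* and 65.9% for *Tcl1b3*. Of 150-base stretches, 96.2% were unique in *Tcl1b2*, 96.3% in *Tcl1b3* and 100% in the other members. Every shared stretch of these lengths was shared within the family, since 0 stretches matched a gene outside it. By this measure the counts of *Tcl1b2* and *Tcl1b3* are the most open to loss of reads that fit several copies.

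The promoters of *Tcl1* and of the *Tcl1b* copies also differed in sequence. The windows of RefSeq on GRCm38.p6 hold 250 bases before and 50 bases after each start, and 3 are shown so that *Tcl1* and examples of the *Tcl1b* copies can be set side by side. Capitals mark TTTAAG in *Tcl1b2* and *Tcl1b5*, and the GC box GGGCGG on the reverse strand in *Tcl1*.
Tcl1b2 promoter (chr12:105146769-105147068, plus strand): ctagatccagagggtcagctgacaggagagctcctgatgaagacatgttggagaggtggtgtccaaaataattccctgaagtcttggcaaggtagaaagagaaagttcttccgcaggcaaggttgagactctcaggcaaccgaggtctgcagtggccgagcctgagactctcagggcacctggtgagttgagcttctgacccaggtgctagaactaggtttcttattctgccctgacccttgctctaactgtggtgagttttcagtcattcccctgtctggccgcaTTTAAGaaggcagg
Tcl1b5 promoter (chr12:105176094-105176393, plus strand): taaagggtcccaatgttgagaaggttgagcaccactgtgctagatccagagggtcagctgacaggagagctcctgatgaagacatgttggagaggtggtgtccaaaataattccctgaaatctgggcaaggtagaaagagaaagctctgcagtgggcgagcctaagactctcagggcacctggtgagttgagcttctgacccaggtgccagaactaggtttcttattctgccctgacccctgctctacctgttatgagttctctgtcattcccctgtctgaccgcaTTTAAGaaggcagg
Tcl1 promoter (chr12:105222688-105222987, minus strand): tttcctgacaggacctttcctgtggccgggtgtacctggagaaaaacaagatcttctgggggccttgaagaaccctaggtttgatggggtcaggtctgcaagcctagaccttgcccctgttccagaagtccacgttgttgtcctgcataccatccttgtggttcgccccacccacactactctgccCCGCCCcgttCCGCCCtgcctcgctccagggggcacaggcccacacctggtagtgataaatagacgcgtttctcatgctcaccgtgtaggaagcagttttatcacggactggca

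Among the *Tcl1b* promoters, identity ran from 68.5 to 98.6%, the highest being between *Tcl1b2* and *Tcl1b4*, and *Tcl1* was 50.3 to 52.6% identical to them. The letters TTTAAG were chosen after the sequences were read. They began 21 to 36 bases after the RefSeq start in *Tcl1b1*, *Tcl1b2*, *Tcl1b3* and *Tcl1b5*, and were found on either strand in 13.5% of all 32851 promoters of the table. The window of *Tcl1b4* ends before that place. The GC box was in *Tcl1* alone of the 6, at 64 and 54 bases before the start, and in 35.7% of all promoters. The E-box CANNTG was in 6 of 6 members and 72.3% of all promoters. TATAAA, in 13.6% of all promoters, and the NOBOX letters TAATTG, in 8%, were in 0 of 6. All searches were on both strands, and a match is a description of the letters only.

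Raw counts summed to between 17712075 and 20077326 in the 4 libraries, in which 14793 to 16311 genes had a count. Control replicate 2 was the library with the fewest genes and a TMM factor of 0.834, against 1.04 to 1.10 in the others. Among 7096 genes with at least 10 CPM (counts scaled to a common library size) on average, 17.2% were at least 2-fold apart between the controls and 10.2% between the Mdivi-1 libraries. Of 8 genes read as marks of the labelled stage, *Zfp352* was at 128 to 512 CPM and *Zscan4d*, which has near-identical copies, at 188 to 657 CPM. *Zscan4c* ran from 8.99 CPM in control replicate 2 to 350 CPM in Mdivi-1 replicate 2, and *Duxf3* was low, at 0.966 to 6.15 CPM. Of inner cell mass and trophectoderm markers, *Cdx2* was at 0 in all 4 libraries and *Nanog* at 0 to 0.197 CPM. *Gata3* was present at 9.45 to 26.4 CPM and *Sox2* at 0.984 to 7.14 CPM. *Krt8* and *Krt18* were at 0 in replicate 1 of both groups and at 1.62 to 4.26 CPM in replicate 2. Since each library is bulk RNA of whole embryos, fewer cells and less RNA per cell cannot be told apart.

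*Tcl1*, the founding member and the AKT co-activator best known in oocytes, stood at 1444 and 1433 TMM-normalized CPM in control replicates 1 and 2 and at 2829 and 4987 CPM in Mdivi-1 replicates 1 and 2. Control replicate 2 was 0.992-fold of control replicate 1 and Mdivi-1 replicate 2 was 1.76-fold of Mdivi-1 replicate 1, and the groups did not overlap, the lower treated library being 1.96-fold above the higher control. The mean was 1439 ± 8.08 CPM in control embryos and 3908 ± 1526 CPM in treated embryos (SD, n = 2 each), a log2 fold change of 1.44 ± 0.39 (SE).

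The *Tcl1b* copies encode close relatives of TCL1 and had a different spread, with control replicate 2 well above control replicate 1. *Tcl1b1* was at 532 and 1584 CPM in controls and 1372 and 1887 CPM after treatment, so that Mdivi-1 replicate 1 lay below control replicate 2. *Tcl1b4* overlapped in the same manner, with 138 and 492 CPM in controls and 449 and 764 CPM in treated embryos. The means were 1058 ± 744 and 1630 ± 364 CPM for *Tcl1b1* and 315 ± 250 and 606 ± 223 CPM for *Tcl1b4* (SD, n = 2 each), with log2 fold changes of 0.62 ± 0.51 and 0.94 ± 0.57 (SE).

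*Tcl1b2* was at 219 and 574 CPM in controls and 652 and 1091 CPM in treated embryos. *Tcl1b3* was at 267 and 822 CPM in controls and 828 and 1165 CPM in treated embryos. In these genes the treated libraries lay above both controls, but the lower treated library of *Tcl1b3* exceeded the higher control by only 1.01-fold, and that of *Tcl1b2* by 1.14-fold. The log2 fold change was 1.14 ± 0.50 for *Tcl1b2* and 0.87 ± 0.52 for *Tcl1b3* (SE).

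*Tcl1b5*, the member with the lowest counts, was at 55.8 and 111 CPM in controls and at 159 and 254 CPM after treatment. The groups did not overlap, with the lower treated library 1.43-fold above the higher control. Its mean was 83.3 ± 38.9 CPM in controls and 207 ± 67.6 CPM in treated embryos (SD, n = 2 each), a log2 fold change of 1.31 ± 0.42 (SE).

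**Figure D1:**
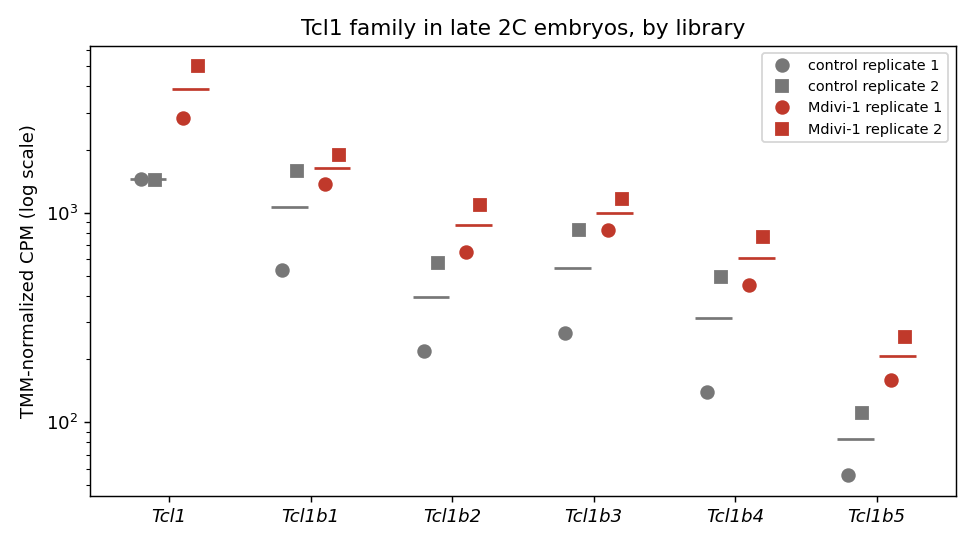
TMM-normalized CPM on a log scale for each Tcl1 family member, with control libraries in grey, Mdivi-1 libraries in red, circles for replicate 1, squares for replicate 2 and a bar at the mean of each group. The controls of *Tcl1* sit together at 1444 and 1433 CPM, while those of the 5 *Tcl1b* copies are 1.99- to 3.56-fold apart.

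In all, 6 of 6 members had a positive log2 fold change, with a median of 1.04 and a range of 0.62 to 1.44, beside a median of 0.03 over all genes tested, of which 51.3% were positive. Both treated libraries were above both controls in 4 of 6 members and in 26.1% of all genes tested. By edgeR's quasi-likelihood test 0 of 6 members passed the definition of a called gene (over 2-fold and adjusted p under 0.05), as did 0% of all genes. At an unadjusted p under 0.05 by that test, 2 of 6 (*Tcl1* and *Tcl1b5*) were higher in treated embryos, as were 8.27% of all genes. DESeq2 called the same 2 members higher, beside 3.23% of all genes called higher and 2.73% called lower. The members were chosen with this contrast known, so nothing is read from these counts.

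The family as a whole took 58365 counts in control replicate 1 and 76457 in control replicate 2, or 0.291% (95% Wilson interval 0.288 to 0.293%) and 0.418% (0.415 to 0.421%) of all counts. In Mdivi-1 replicates 1 and 2 it took 117145 and 194706 counts, or 0.661% (0.658 to 0.665%) and 1.05% (1.05 to 1.06%). These intervals cover counting error only and leave out the spread between libraries. Reads amplified without molecular tags are not independent molecules, so the intervals may be too narrow even for counting error. The groups did not overlap, and the summed level was 3836 ± 1669 CPM in controls and 8219 ± 2731 CPM in treated embryos (SD, n = 2 each), a ratio of 2.14.

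Split by branch, the 5 *Tcl1b* copies together were at 1212 and 3584 CPM in controls and 3459 and 5161 CPM after treatment. Mdivi-1 replicate 1 was thus 0.965-fold of control replicate 2, and the summed groups of *Tcl1b* overlapped where those of *Tcl1* did not. *Tcl1* held 54.4% of the family counts in control replicate 1, 28.6% in control replicate 2 and 45.0 and 49.1% in the treated libraries. For this share the controls lay on both sides of the treated libraries. The share of *Tcl1b1* was 20.0% in control replicate 1, 31.6% in control replicate 2 and 21.8 and 18.6% in the treated libraries, where the groups also overlapped. That of *Tcl1b5* was 2.10 and 2.21% in controls and 2.53 and 2.51% after treatment. The widest Wilson interval of such a share was 0.8 percentage points.

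**Figure D2:**
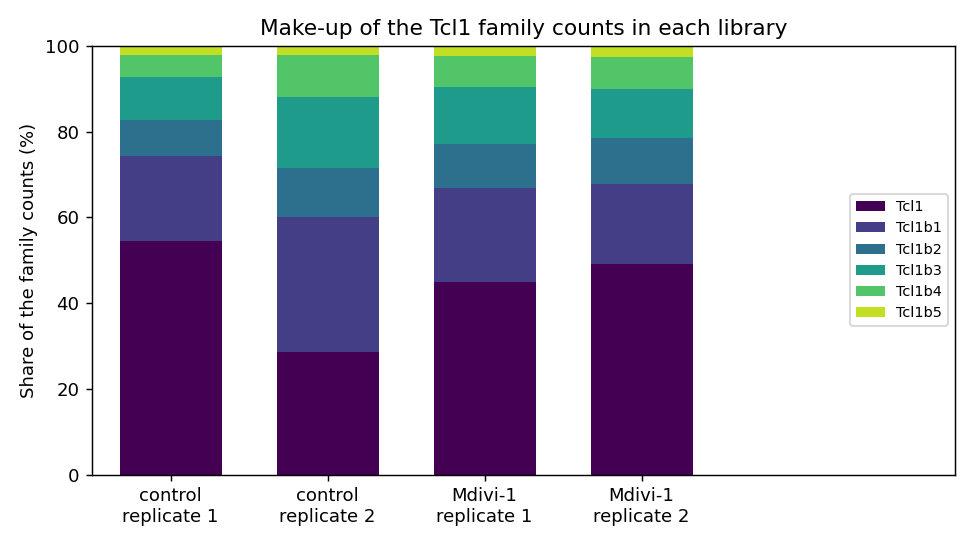
Share of the family counts in percent held by each of the 6 members, as a stacked bar for each of the 4 libraries. The *Tcl1* segment is largest in control replicate 1 (54.4%) and smallest in control replicate 2 (28.6%), and that of *Tcl1b5* is 2.10 to 2.53% in every library.

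Levels were compared between members only per length, as CPM per kilobase of exonic sequence. In treated embryos the order of mean levels was *Tcl1* (2118 ± 827), *Tcl1b1* (1567 ± 350), *Tcl1b3* (954 ± 228), *Tcl1b2* (693 ± 247), *Tcl1b4* (405 ± 149) and *Tcl1b5* (196 ± 64.0, SD, n = 2 each). *Tcl1* and *Tcl1b1* overlapped between libraries, as did *Tcl1b3* and *Tcl1b2*, and the other neighbours in this order did not. In control embryos *Tcl1b1* (1017 ± 716) came before *Tcl1* (780 ± 4.38), followed by *Tcl1b3* (521 ± 376), *Tcl1b2* (315 ± 200), *Tcl1b4* (211 ± 167) and *Tcl1b5* (78.9 ± 36.9), and every pair of neighbours overlapped. Taken library by library, the order was that of the treated means in control replicate 1 and both treated libraries. In control replicate 2 *Tcl1b1* and *Tcl1b3* came first and *Tcl1* was next, at 777 beside 787 CPM per kilobase for *Tcl1b3*. The order depends on the length used. By the length of the main transcript *Tcl1* was at 1033 and 1025 in the controls, with a mean just above that of *Tcl1b1* (511 and 1524), and it came before *Tcl1b3* in control replicate 2. In treated embryos by that length *Tcl1b2* and *Tcl1b4* overlapped, and *Tcl1* and *Tcl1b1* did not.

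All members were among the more abundant transcripts of these embryos. By level per length, *Tcl1* ranked 41 and 76 among the 14259 genes in control libraries and 22 and 17 in treated ones. *Tcl1b1* ranked 73 and 34 in control libraries and 26 and 21 in treated ones. The lowest member, *Tcl1b5*, ranked 891 and 585 in control libraries and 316 and 184 in treated ones, so that each of these 3 genes ranked higher in both treated libraries than in either control. For *Tcl1b1* the level itself overlapped, at 1319 CPM per kilobase in Mdivi-1 replicate 1 and 1524 in control replicate 2.

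Because each group had 2 libraries, the size of the fold change was also read with each library left out. The log2 fold change of *Tcl1* ran from 0.96 without Mdivi-1 replicate 2 to 1.79 without Mdivi-1 replicate 1, and leaving out either control gave 1.45 or 1.42. For the *Tcl1b* copies the value depended most on which control was kept. Without control replicate 1 the log2 fold change was 0.04 for *Tcl1b1*, 0.28 for *Tcl1b3*, 0.30 for *Tcl1b4*, 0.60 for *Tcl1b2* and 0.90 for *Tcl1b5*. Without control replicate 2 the values were 1.60, 1.88, 2.11, 1.97 and 1.87 for the same genes in the same order. The sign was positive for every member in all 4 of these fits.

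**Figure D3:**
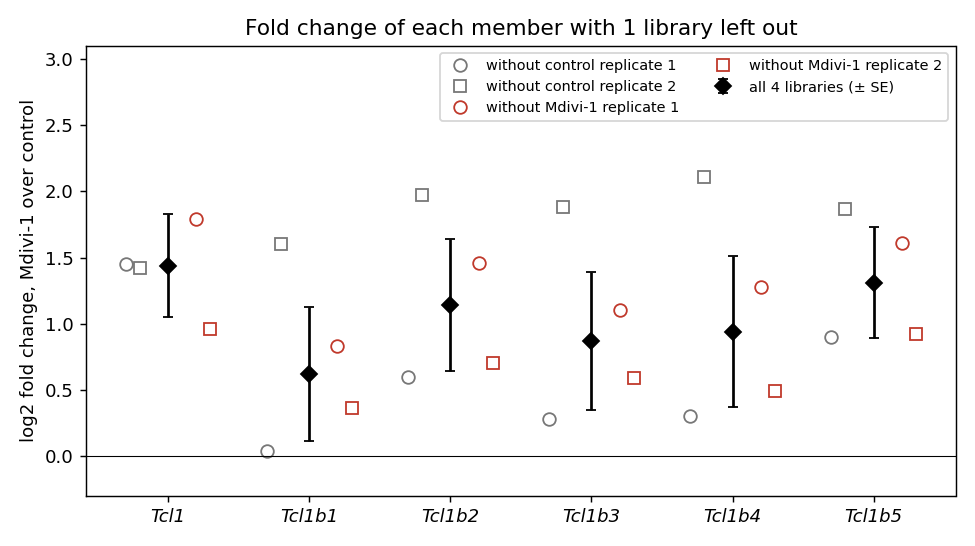
Log2 fold change of Mdivi-1 over control for each member, with all 4 libraries (black diamonds, bars ± SE of the quasi-likelihood fit) and with 1 library left out (open symbols, grey for a control and red for a treated library). The grey symbols of *Tcl1* coincide at 1.45 and 1.42, while those of *Tcl1b1* lie at 0.04 and 1.60.

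The genes whose profile over the 4 libraries was nearest to each member were named by the Euclidean distance between mean-centred log2 CPM, among 7095 other genes with at least 10 CPM on average. To *Tcl1* the nearest were *Mpdz*, a scaffold protein with many PDZ domains (distance 0.118), *Ripk1*, a kinase of death receptor signalling (0.134), and *Zfp846* (0.164). *Mpdz* was at 18.0, 18.5, 33.0 and 59.1 CPM in the 4 libraries. None of the *Tcl1b* copies was near *Tcl1* by this measure, the closest being *Tcl1b5* at rank 277 and the others at ranks 895 to 2013.

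Among the *Tcl1b* copies the distances were uneven. *Tcl1b1* and *Tcl1b3* held ranks 11 and 12 in each other's lists, and *Tcl1b3* and *Tcl1b4* ranks 11 and 6. *Tcl1b1* and *Tcl1b5* were 0.701 apart (ranks 216 and 226), close to the 0.716 between *Tcl1* and *Tcl1b5*. The genes nearest to *Tcl1b1* were *Cldn34b2*, a claudin-like gene (0.0704), *Setd6*, a lysine methyltransferase (0.202), and *Oosp1*, an oocyte-secreted protein (0.204), which was at 956, 2368, 2401 and 3198 CPM. *Mthfs*, an enzyme of folate metabolism, was nearest to *Tcl1b2* (0.109) and among the 3 named for *Tcl1b4* (0.241). *Tcl1b2* was also near *Triqk* (0.109) and *Tdpoz3* (0.131), and *Tcl1b4* near *Zscan4a*, a 2C gene (0.256), and *Rit2*, a small GTPase (0.257).

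*Stat4*, a transcription factor of cytokine signalling (0.141), *Creb3l4* (0.178) and *Adcy2*, an adenylyl cyclase (0.184), were nearest to *Tcl1b3*. The gene nearest to *Tcl1b5* was *Tnfsf13b*, which encodes the B-cell survival factor BAFF, at 90.4, 173, 255 and 423 CPM (0.0662). *Sh3bgrl* (0.190) and *Nuf2*, a kinetochore protein (0.204), followed. With 4 libraries a profile has few degrees of freedom, and the points share library depth and scaling.

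Lists of 65 genes of the AKT pathway, on which TCL1 proteins act, were read from the same fit. Of the 60 tested, 39 lay above 0 and 21 below it on the log2 fold change scale, the median being 0.27 beside 0.03 over all genes. The quasi-likelihood test called 0 of 60, with 7 higher and 1 lower at an unadjusted p under 0.05, beside 8.27% of all genes higher at that p. The share of all genes lower at that p is not given. DESeq2 called 3 of 60 higher and 0 lower, beside 3.23% and 2.73% of all genes. Those 3 were *Pik3cd*, *Pik3r1* and *Wee2*.

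*Akt1* and *Akt2*, kinases that TCL1 proteins bind, were called by neither test. *Akt1* was at 21.0 and 13.1 CPM in controls and 20.8 and 12.8 CPM after treatment, a log2 fold change of -0.02 ± 0.50 (SE) whose sign turned under library totals and in 2 of the fits with a library left out. *Akt2* had a log2 fold change of -0.19 ± 0.42 (0.01 without control replicate 2), with an adjusted p of 0.895 by the quasi-likelihood test.

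On the list for AKT activation by PI3K, PDK1 and mTORC2, 14 of 18 genes tested had a positive log2 fold change, with a median of 0.66. The list holds components and regulators of these enzymes, not all of which activate AKT. *Pik3cd*, a catalytic subunit of PI3-kinase, was at 23.1 and 28.3 CPM in controls and 78.6 and 69.5 CPM after treatment, a log2 fold change of 1.53 ± 0.33 (SE) with an adjusted p of 0.151 by the quasi-likelihood test and 0.00762 by DESeq2. *Pik3r1*, a regulatory subunit of the same enzyme, was at 32.9 and 20.1 CPM and at 69.1 and 66.1 CPM, a log2 fold change of 1.35 ± 0.37 with adjusted p of 0.184 by the quasi-likelihood test and 0.0364 by DESeq2. Treated and control libraries did not overlap for these genes, which were picked by their small p in this same comparison. Both treated libraries were above both controls in 26.1% of all genes tested. *Irs1*, an adaptor of the insulin receptor, was near 0 in controls (0.364 and 0 CPM) and at 3.65 and 5.84 CPM in treated embryos, with adjusted p of 0.266 by the quasi-likelihood test and 0.0549 by DESeq2.

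Of 17 tested genes that oppose AKT, 11 were positive and 6 negative, with a median log2 fold change of 0.10, and 0 were called by either test. *Ppp2r2a*, a regulatory subunit of the phosphatase PP2A, was at 205 and 218 CPM in controls and 128 and 138 CPM after treatment, a log2 fold change of -0.67 ± 0.28 (adjusted p = 0.295 by the quasi-likelihood test). *Trib2*, a pseudokinase, had a log2 fold change of 1.05 ± 0.45 and *Them4*, a thioesterase that binds AKT, one of -0.59 ± 0.31. Of 22 tested AKT substrates 13 were positive, with a median of 0.37. *Wee2*, the oocyte kinase that holds CDK1 inactive, was at 152 and 98.4 CPM in controls and 374 and 406 CPM after treatment, a log2 fold change of 1.64 ± 0.33 with adjusted p of 0.146 by the quasi-likelihood test and 0.000153 by DESeq2. *Cdc25b*, a phosphatase that activates CDK1, had a log2 fold change of 2.02 ± 0.60 and *Cdkn1a*, the CDK inhibitor p21, one of -0.80 ± 0.38, and neither was called by either test.

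The other reported binding partners of TCL1 proteins had a median log2 fold change of -0.15, with 2 of 5 positive and 0 called by either test. They include *Hspa8*, a chaperone (-0.51 ± 0.30), *Atm*, a DNA damage kinase (-0.39 ± 0.30), and *Ep300*, an acetyltransferase (0.22 ± 0.40), whose sign turned with control replicate 2 or Mdivi-1 replicate 2 left out. *Mtcp1*, the remaining gene of the wider TCL1 family, lies outside the cluster and was at 2.96 and 2.30 CPM in controls and 7.03 and 6.36 CPM after treatment. Its log2 fold change was 1.35 ± 0.84, with an adjusted p of 0.491 by the quasi-likelihood test and 0.518 by DESeq2. *Dnm1l*, which encodes DRP1, was at 37.9 and 33.1 CPM in controls and 93.7 and 91.3 CPM after treatment, a log2 fold change of 1.38 ± 0.31 with adjusted p of 0.153 by the quasi-likelihood test and 0.00952 by DESeq2.

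**Figure D4:**
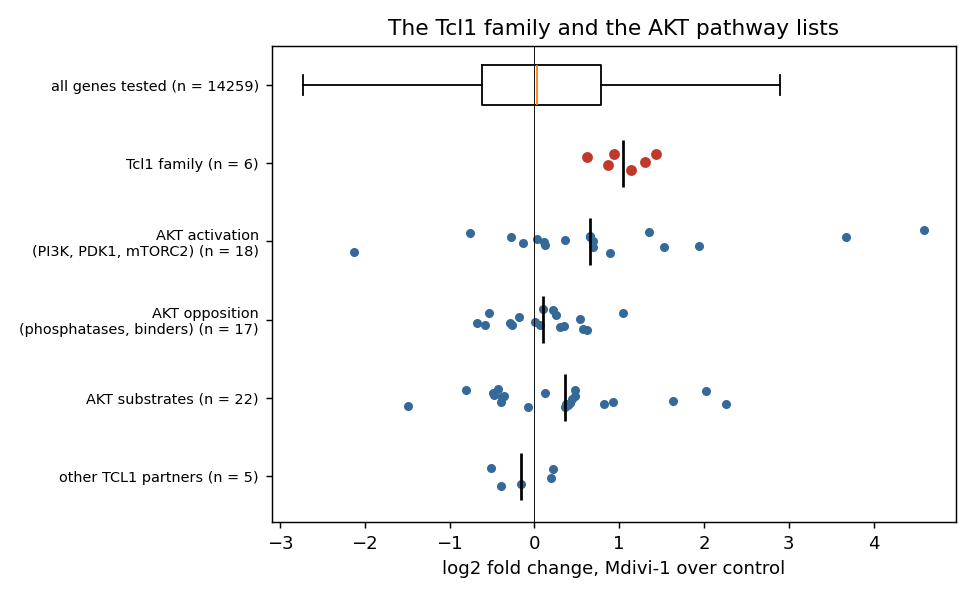
Log2 fold change of Mdivi-1 over control for all 14259 genes tested (box with quartiles and median, whiskers to the last gene within 1.5 box lengths), for the 6 Tcl1 family members (red) and for 4 lists of AKT pathway genes and TCL1 partners (blue), with a black line at each median and points spread vertically at random. The family median is 1.04, that of the AKT activation list 0.66 and that of AKT substrates 0.37.

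The genes beside the cluster had values of both signs. Within 500 kb of either end the annotation has 24 genes, of which 13 are in the deposited table and 9 were tested. Of these 4 had values above 0 and 5 below, the median log2 fold change being -0.51 with a range of -1.25 to 1.51. The highest value was that of *Syne3* (1.51 ± 1.81, SE), which had few counts. It was at 1.41 and 0.131 CPM in controls and 3.97 and 0.469 CPM after treatment. Of the 9 neighbours, 0 were called by the quasi-likelihood test or DESeq2, with 0 higher and 1 lower at an unadjusted p under 0.05. The treated libraries lay above both controls in 0 of the 9, beside 26.1% of all genes tested, and below both in 4. The shares of all genes below both controls, or lower at that unadjusted p, are not given, so those counts are not read further.

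*Glrx5*, a mitochondrial glutaredoxin and the nearest tested coding gene before the cluster at 103 kb, was at 25.1 and 21.0 CPM in controls and 31.9 and 21.0 CPM after treatment, a log2 fold change of 0.20 ± 0.41 (SE) that turned negative without Mdivi-1 replicate 1. After the cluster, *Atg2b*, a lipid transfer protein of autophagy, lay 393 kb away and had a log2 fold change of -1.25 ± 0.57. *Gskip*, which binds GSK3B, was at 98.0 and 145 CPM in controls and 75.0 and 62.9 CPM after treatment, a log2 fold change of -0.82 ± 0.33 with an adjusted p of 0.281 by the quasi-likelihood test. *Ak7*, an adenylate kinase, was at -0.71 ± 0.44 on the same scale.

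**Figure D5:**
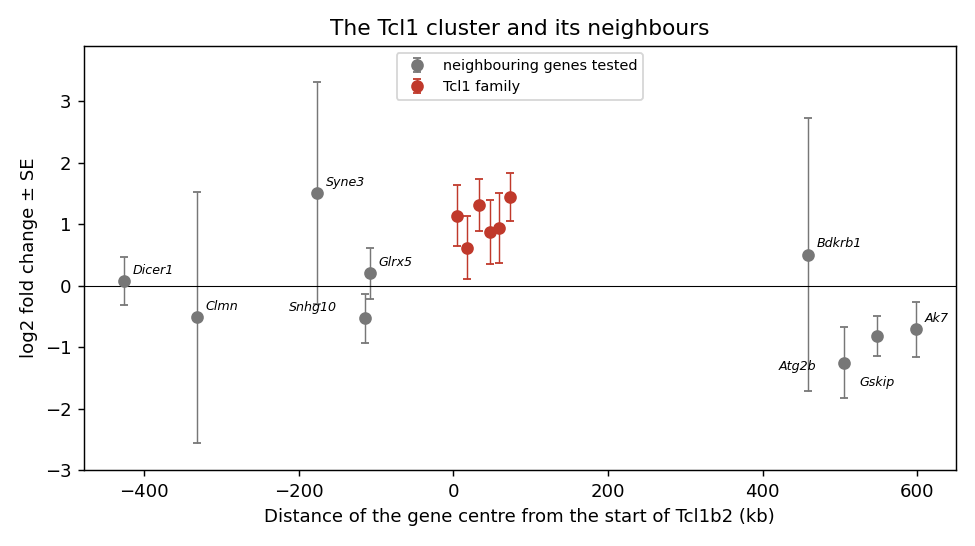
Log2 fold change of Mdivi-1 over control (± SE) against the distance in kb of each gene's centre from the start of *Tcl1b2*, for the 6 family members (red) and the 9 tested neighbours (grey). The members lie between 0.62 and 1.44, and the neighbours between -1.25 and 1.51, the highest being *Syne3*, a gene of few counts with an SE of 1.81.

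Markers of other cell types and of the maternal store were read beside the family. Of 12 oocyte and maternal genes, 10 had a positive log2 fold change, beside 51.3% of all genes tested, and the median was 0.61. The treated libraries lay above both controls in 5 of 12, beside 26.1% of all genes tested. The summed level of the 12 was 997 and 1476 CPM in controls and 2872 and 5047 CPM after treatment. Most of this sum was *Btg4*, a gene of maternal messenger RNA decay, at 380 and 656 CPM in controls and 1650 and 3614 CPM in treated embryos, and *Bmp15*, an oocyte growth factor. By contrast *Zp3*, a zona pellucida gene, was at 198 and 270 CPM in controls and 149 and 99.2 CPM after treatment. The summed level of 8 genes of the 2C embryo was 699 and 1064 CPM in controls and 1638 and 2202 CPM after treatment, with 8 of 8 positive and a median of 1.31. In 6 of the 8 the treated libraries lay above both controls. The paper had already reported *Zfp352* and *Zscan4d* of this list as higher in these treated embryos, so their signs were known beforehand. The part of the oocyte, maternal and 2C genes in the family's values was not tested.

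Of 13 cumulus and granulosa markers 4 were tested, with a summed level over the list of 7.78 and 17.5 CPM in controls and 22.0 and 22.5 CPM after treatment. *Has2*, *Ptx3*, *Amh* and *Inha* were at 0 in all 4 libraries. *Tnfaip6* was present at 6.55 and 10.7 CPM in controls and 9.98 and 15.3 CPM after treatment. *Cyp19a1* was at 1.23 and 0.459 CPM in controls and 4.83 and 2.35 CPM in treated embryos, and *Star* at 0 and 0.262 CPM and at 3.11 and 3.86 CPM. The 4 lymphoid markers, read because lymphocytes express TCL1 genes, summed to 5.01 and 4.26 CPM in controls and 1.29 and 2.24 CPM after treatment. *Cd3e* was at 0 in all 4 libraries, and *Ptprc* was at 1.18 to 1.84 CPM. The inner cell mass and trophectoderm markers summed to 13.0 and 18.4 CPM in controls and 31.9 and 33.2 CPM after treatment.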

How the data were processed

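RNA of 2 control and 2 Mdivi-1-treated samples of late 2C embryos was analysed. The authors trimmed reads with cutadapt 1.16, mapped them with STAR to the mouse genome (mm10 in the submitters' processing notes) and made raw counts per gene from uniquely mapped reads in exons. The authors' deposited table also holds a size-factor-scaled signal per library and, from their own comparison, log2 fold changes, a test score and p-values, none of which were used here. Coordinates of the deposited table differ from GENCODE M21 on GRCm38, whose positions are given, matched by Ensembl ID for 25995 of 26022 genes.

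The raw counts were filtered with filterByExpr (minimum count 10), normalized by TMM and tested with the quasi-likelihood test of edgeR 4.0.16 in R 4.3.3, two-sided, with Benjamini-Hochberg adjustment over all 14259 genes. A gene was called at over 2-fold and an adjusted p under 0.05. Standard errors were worked back from that test. The biological coefficient of variation was 0.66. Libraries were counted as replicates as labelled, and the chi-square per degree of freedom between them was 115 in controls and 52.9 in treated embryos, more than counting error alone gives. Alternatives were DESeq2 1.42.0, limma-voom of limma 3.58.1, the likelihood ratio test, other scalings and filters, a replicate block and each library left out. The tests were checked on simulated counts.

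Members and lists were chosen with earlier results of these data known. Named genes were all members, *Mtcp1*, *Akt1*, *Akt2*, *Dnm1l*, up to 3 tested genes of each other list and of the neighbours by smallest unadjusted p, the nearest coding neighbour on each side where it had a row in the table, and the 3 nearest profiles of each member without Gm or Rik names. A further gene that the rule names is not reported here. The neighbour *Syne3* and all genes named from the marker lists, *Zscan4d*, *Zfp352*, *Btg4*, *Bmp15*, *Zp3* and *Cdx2* among them, were picked after their values were seen. Sequences were aligned with Biopython 1.88. Promoters were matched by symbol for 6 of 6 members.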

Additional observations from a re-analysis of the deposited data

How the results depend on the processing

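With all 4 libraries kept, the log2 fold change of every member held its sign under every setting run, and ran from 1.38 to 1.55 for *Tcl1*, 0.60 to 0.84 for *Tcl1b1*, 1.12 to 1.34 for *Tcl1b2*, 0.85 to 1.09 for *Tcl1b3*, 0.92 to 1.18 for *Tcl1b4* and 1.30 to 1.49 for *Tcl1b5*. The summed family counts gave 1.10, beside a median of 1.04 over the members. The median of all genes was 0.03 under TMM, 0.14 under library totals and 0.02 under DESeq2's size factors. With 2 libraries a group, precision is set by the spread between libraries and not by depth.

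The number of called genes depended on the test. The quasi-likelihood test called 0 of 14259 genes, 0 of 6 members, 0 of 60 AKT pathway genes and 0 of 9 neighbours. Without the low-count filter it called 819 genes (455 higher, 364 lower), 2 members and 3 AKT pathway genes. DESeq2 called 850 (461 higher, 389 lower), 2 and 3, the likelihood ratio test 867 (512 higher, 355 lower), 1 and 3, and limma-voom 202 (125 higher, 77 lower), 1 and 1. No neighbour was called in these fits. Library totals, DESeq2's size factors in edgeR and a filter of 1 CPM in at least 2 libraries left 0 called in each. *Pik3cd*, *Pik3r1*, *Wee2* and *Dnm1l* passed under DESeq2, the likelihood ratio test and no low-count filter, and limma-voom passed *Wee2* of these. The cause was not tested.

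With the replicate number as a replicate block, 0 genes, 0 members, 0 AKT pathway genes and 0 neighbours were called. The labels give same-numbered samples nothing in common but the number. Their deviations had a correlation of 0.00684, which cannot show whether they share a litter or batch.

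With 1 library left out, the lone sample of a group is assumed to vary like the other group. The quasi-likelihood test then called 0 to 10 genes, 10 of them without control replicate 2, and 0 members, AKT pathway genes or neighbours. DESeq2 with a library left out was added after seeing the data. With control replicate 1, control replicate 2, Mdivi-1 replicate 1 or Mdivi-1 replicate 2 left out it called 1360, 803, 90 or 222 genes. In that order it called 1, 6, 1 and 0 members, 5, 2, 0 and 0 AKT pathway genes, and 1, 0, 0 and 0 neighbours.

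Signs turned for genes near 0. *Akt1*, at -0.41 without Mdivi-1 replicate 1, was at 0.05 under library totals, 0.36 without control replicate 1 and 0.27 when Mdivi-1 replicate 2 was left out. *Akt2* ran from -0.37 without control replicate 1 to 0.01 without control replicate 2. *Ep300* was at 0.80 without control replicate 1, -0.22 without control replicate 2 and -0.01 when Mdivi-1 replicate 2 was left out. *Glrx5* ran from -0.13 without Mdivi-1 replicate 1 to 0.45 when replicate 2 was left out. The cause was not tested.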
